A study of Mus musculus with 13 samples.

Results

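The genes described here are the 3 TGF-beta ligands (Tgfb1, Tgfb2, Tgfb3), their 3 receptors (Tgfbr1, Tgfbr2, Tgfbr3) and 4 of the Smad proteins that act below them (Smad2, Smad3, Smad4, Smad7). These 10 genes were taken by name, and all 10 were among the 23366 genes measured in the mouse pancreas. RNA sequencing was done on 13 female mice, with 1 library per mouse. All mice came from the i4F-B reprogrammable strain, in which a transgene for the factors Oct4, Sox2, Klf4 and Myc (OSKM), inducible by doxycycline in all tissues, sits in the Pparg gene, so the untreated controls carried the cassette too. The 4 young mice were 13 weeks old and the 5 old mice 55 weeks old, both without doxycycline. The 4 old-OSKM mice received doxycycline for 7 days from 55 weeks of age, recovered for 2 weeks, and are labelled 58 weeks old. No group of the RNA sequencing had doxycycline without a cassette, so the drug and the factors cannot be told apart. The mice are named below by group and number, and the numbers carry no pairing.

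TGF-beta is a secreted cytokine that is made as a latent precursor, stored in the extracellular matrix and released from it before it can signal. The active ligand binds the type II receptor TGFBR2, which recruits and phosphorylates the type I receptor TGFBR1, and that kinase phosphorylates SMAD2 and SMAD3, which enter the nucleus with SMAD4. In the pancreas the pathway is known for activating stellate cells, the source of collagen in fibrosis, and for restraining epithelial proliferation.

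Expression is given as log2 RPKM (reads per kilobase of transcript, scaled to the reads of the library), so that levels of different genes can be set side by side per length. Between groups, a difference is the first group's mean minus the second's on the same scale, from a limma fit over all genes and all 13 mice, with its standard error (SE) and 95% confidence interval. A gene was called at the study's thresholds, a fold change over 1.5 with a raw p under 0.01, and a raw p under 0.05 was counted as a weaker mark. The table was quantile normalized and carries no read counts. The study's methods state a nominal sequencing depth shared by all libraries, and totals of mapped reads per mouse were not used here. Each level is relative to the other genes of the same mouse. In bulk tissue, fewer cells of a type and less RNA per cell cannot be told apart.

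The tissue was pancreas by its markers, with acinar markers summing to 17.44 to 17.61 (log2 of summed RPKM) in the 13 mice. Quantile normalization holds the top-ranked genes at shared values (Ctrb1 was 16.03 in every mouse), so this narrow band cannot show equal acinar content. The acinar factors Ptf1a (2.51 to 4.54), Rbpjl (3.93 to 6.05) and Bhlha15 (4.90 to 5.50) varied more. The libraries of old-OSKM mouse 1, old-OSKM mouse 4 and young mouse 4 stood apart. Their 11 stellate cell and fibroblast markers summed to between 6.85 and 8.22, against 5.43 to 6.26 in the other 10 mice. Their summed duct (6.14 to 7.16 against 5.30 to 5.78), macrophage (5.45 to 6.69 against 3.78 to 4.90) and adipocyte markers (4.33 to 5.22 against 2.28 to 3.41) were also above all others. The duct sum was mostly Spp1 (RPKM 38.2 at its mean log2 level, against 6.4 for Krt19 and 5.12 for Sox9). Of the 6 duct markers, 3 had a higher mean in old-OSKM than in old mice, and Krt19 did not (2.59 against 2.71). The adipocyte sum was mostly Fabp4 (RPKM 7.21). Pparg was lower in old-OSKM (-0.45) than in old mice (-0.12), and the other 6 adipocyte markers were higher. Endothelial and mesothelial markers reached 5.69 and 2.51 in old-OSKM mouse 4, but old-OSKM mouse 1 (4.36 and 1.41) was within the endothelial range of the other mice. Old-OSKM mouse 1 had the highest T cell (2.68), B and plasma cell (4.63) and macrophage (6.69) sums, and old-OSKM mouse 4 the highest islet sum (12.19) and erythroid and platelet sum (8.93). Young mouse 3 had a liver marker sum of 8.10, where the other 12 mice had 1.93 to 3.59. Results that rest on the 3 mice are given with and without them, a choice made after the data were seen.

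No member was called in any contrast. Between old and young mice 0 of 10 members passed both thresholds in limma, where 1.17% of all genes did, and 1 had a raw p under 0.05 (Tgfb2, lower in old), where 5.52% of all genes did. Between old-OSKM and old mice 0 of 10 were called against 1.02% of all genes, and 2 had a raw p under 0.05 (Tgfb3 and Tgfbr2, both higher in old-OSKM) against 8.07%. Between old-OSKM and young mice 0 of 10 were called against 0.813% of all genes, and 0 had a raw p under 0.05 against 5.07%. No adjusted p of a member was under 0.55. The first 2 comparisons share the old mice, so a low value in these mice enters both with opposite sign.

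**Figure D1:**
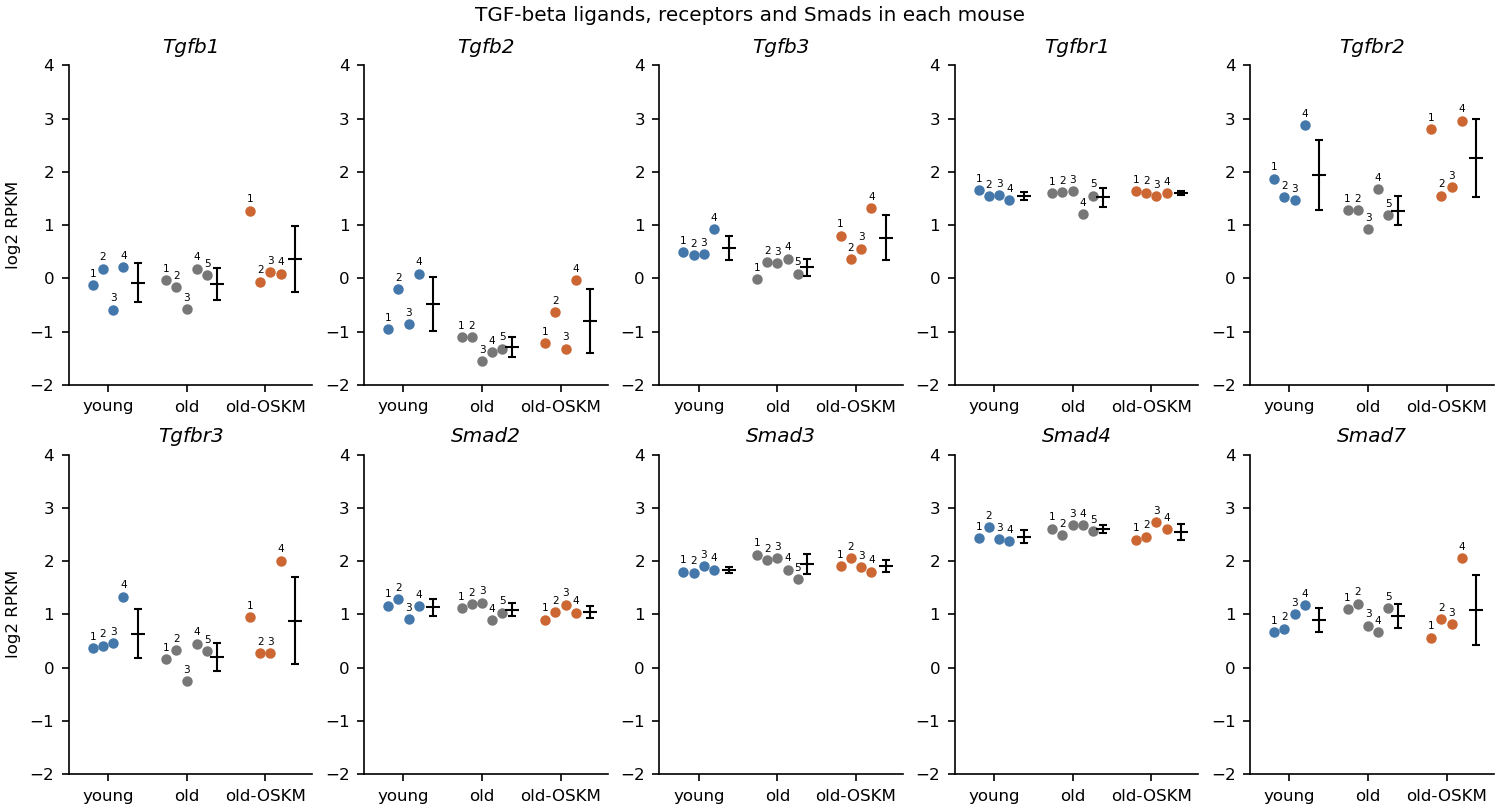
Level of each of the 10 genes in each mouse, in log2 RPKM on 1 common axis, with the mouse number above each point and the group mean and SD as a black bar at the right of each group. Tgfbr2, Tgfbr3 and Tgfb3 are highest in young mouse 4, old-OSKM mouse 1 and old-OSKM mouse 4, while Tgfbr1, Smad2, Smad3 and Smad4 hold a narrow band across all 13 mice.

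Among the ligands, Tgfb2 (Entrez 21808, chr1:186622787-186709697 on GRCm38.p6) was lower in every old mouse than in any young mouse. TGF-beta 2 is the isoform known chiefly from development and epithelial tissue. Its log2 RPKM was -0.95, -0.20, -0.86 and 0.09 in young mice 1 to 4 and -1.10, -1.10, -1.55, -1.38 and -1.32 in old mice 1 to 5. The 2 groups did not overlap, and young mice 2 and 4 lay well above young mice 1 and 3. Old-OSKM mice 1 to 4 had -1.22, -0.63, -1.32 and -0.03, so that mice 1 and 3 sat within the range of the old mice, and mice 2 and 4 within that of the young. The young mean was -0.48 ± 0.51 (SD, n = 4), the old mean -1.29 ± 0.19 (SD, n = 5) and the old-OSKM mean -0.80 ± 0.60 (SD, n = 4). The difference of -0.81 (SE 0.28, 95% interval -1.43 to -0.19, limma adjusted p = 0.69) makes Tgfb2 1.75-fold higher in young mice in RPKM. The exact two-sided permutation test gave p = 0.0079, the smallest that 5 against 4 mice allow. The exact p-values given for members are not adjusted for the 30 tests made of them. After Benjamini-Hochberg adjustment over these 30 tests, no exact p was under 0.12. Old-OSKM mice lay 0.49 above old mice (interval -0.13 to 1.11, limma adjusted p = 0.61) and differed from young mice by -0.32 (interval -0.97 to 0.33, limma adjusted p = 0.71). The difference between old and young mice was -0.62 without the 3 mice that stood apart, with a raw p still under 0.05. The sample identifiers form 2 runs of numbers, 609 to 621 and 641 to 643, and the later run holds only young mice 3 and 4 and old mouse 5. Within the first run the difference was -0.71, and without young mouse 4 alone it was -0.62, and in both of these fits the raw p was above 0.05.

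Tgfb3 (Entrez 21809, chr12:86056743-86079041), the isoform linked to palate development, was on average the most abundant of the 3 ligand genes. It measured 0.49, 0.43, 0.45 and 0.92 in young mice 1 to 4, and -0.01, 0.31, 0.28, 0.37 and 0.09 in old mice 1 to 5. All old values were below all young values, but old mouse 4 and young mouse 2 were only a narrow step apart. Tgfb2 and Tgfb3 were the 2 members without overlap between old and young mice, both lower in old, where 1.22% of all genes were lower in old without overlap. For Tgfb3 the difference of -0.36 (SE 0.18, interval -0.76 to 0.03) had a raw limma p of 0.068 and an adjusted p of 0.96. The exact permutation p was 0.0079, and 0.12 when adjusted over the 30 tests. Old-OSKM mice 1 to 4 had 0.80, 0.36, 0.56 and 1.32, and only mouse 2 fell within the range of the old mice. The old-OSKM mean lay 0.55 above the old mean (SE 0.18, interval 0.16 to 0.95), 1.47-fold, with a limma adjusted p of 0.55 and an exact permutation p of 0.016. Old-OSKM mice 1 and 4 had the 2 highest Tgfb3 levels of their group. Without these and young mouse 4, old-OSKM mice lay 0.25 above old mice with a raw p no longer under 0.05, and old mice differed from young by -0.25 with a raw p under 0.05. Within the first run of identifiers the 2 differences were 0.52, with a raw p under 0.05, and -0.22.

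Tgfb1 (Entrez 21803, chr7:25687002-25705077), the main isoform of immune and fibrotic responses, overlapped between all groups. It was -0.13, 0.18, -0.59 and 0.21 in young mice 1 to 4, -0.04, -0.16, -0.58, 0.18 and 0.06 in old mice 1 to 5, and 1.27, -0.06, 0.12 and 0.09 in old-OSKM mice 1 to 4. A single animal, old-OSKM mouse 1, lay above the other 12, which shared a range of -0.59 to 0.21. Old mice differed from young by -0.03 (interval -0.63 to 0.58, limma adjusted p = 1.0). Old-OSKM mice had a mean 0.46 above old mice (interval -0.14 to 1.07, limma adjusted p = 0.61), and 0.16 above them without old-OSKM mouse 1. That mouse also had the highest macrophage, T cell and B and plasma cell sums of all 13 mice, but old-OSKM mouse 4, with a macrophage sum of 6.45, had a Tgfb1 level of 0.09, and the part of these cells in the Tgfb1 level was not tested.

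Within each mouse the ligands kept nearly the same order. Tgfb3 was above Tgfb1 in 12 of 13 mice, the exception being old-OSKM mouse 1 (by -0.47), and Tgfb1 was above Tgfb2 in 13 of 13. The gap between Tgfb1 and Tgfb2 averaged 0.40 ± 0.30 (SD, n = 4) in the young, 1.18 ± 0.28 (SD, n = 5) in the old and 1.15 ± 1.05 (SD, n = 4) in the old-OSKM mice. Of the summed RPKM of the 3 ligands, Tgfb2 made up 22.8% (18.2 to 25.9) in young, 16.4% (13.7 to 19.2) in old and 16.7% (9.36 to 22.4) in old-OSKM mice. Tgfb3 made up nearly the same share in all groups, 47.1%, 46.3% and 46.8%. RPKM totals the isoforms of a gene, and the library kit does not mark strand, so reads of the 2 genes overlapping Tgfb2 in the annotation (a snoRNA and a lncRNA) cannot be told from its own. A lncRNA or pseudogene also overlaps each of Tgfbr1, Tgfbr2, Tgfbr3, Smad3 and Smad7, and none of these overlapping genes is in the expression table.

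The sequence before the start site was read for the 2 ligand genes that RefSeq's promoter table lists, because the levels of one (Tgfb2) did not overlap between old and young mice while those of the other (Tgfb1) did. Each run below is the 250 bases before an annotated start site on GRCm38.p6, the assembly also called mm10, written 5′ to 3′ on the gene's strand. The Tgfb1 run lies at chr7:25686752-25687001 (plus strand), directly before the gene's first base. The Tgfb2 run lies at chr1:186705990-186706239 (minus strand), inside the gene's annotated span, which ends at 186709697, and so belongs to a start site downstream of the outermost one. Capitals mark exact matches to any of 6 motifs, searched on both strands.
Tgfb1: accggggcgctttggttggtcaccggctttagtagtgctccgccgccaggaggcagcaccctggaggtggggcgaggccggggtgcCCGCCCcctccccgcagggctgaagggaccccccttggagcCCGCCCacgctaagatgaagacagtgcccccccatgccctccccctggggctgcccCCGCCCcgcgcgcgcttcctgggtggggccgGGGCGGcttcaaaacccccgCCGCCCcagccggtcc
Tgfb2: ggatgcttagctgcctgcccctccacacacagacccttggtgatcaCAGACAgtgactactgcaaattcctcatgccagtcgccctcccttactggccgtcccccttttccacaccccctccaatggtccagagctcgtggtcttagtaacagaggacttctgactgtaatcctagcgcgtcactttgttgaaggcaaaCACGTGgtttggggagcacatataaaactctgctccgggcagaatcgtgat

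The Tgfb1 run holds 5 GC boxes (GGGCGG), the motif of SP1-type factors, which 32.7% of 32851 mouse promoter runs of that length hold at least once. The Tgfb2 run holds no GC box. It has 1 CAGA box core (CAGACA, which SMAD3 and SMAD4 can bind) beginning at -204 from the start site and 1 E-box (CACGTG) at -51, found in 17.1% and 6.02% of all promoter runs. Neither run holds the SMAD palindrome GTCTAGAC (0.167% of promoters), the AP-1 site TGANTCA (6.75%) or the cAMP response element TGACGTCA (1.55%). No motif overlaps another in these runs. A match is only a description of the letters.

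Among the receptors, Tgfbr2 (Entrez 21813, chr9:116087695-116175363) had the largest difference of any member. The type II receptor is the one that binds the ligand first. Its log2 RPKM was 1.87, 1.53, 1.47 and 2.88 in young mice 1 to 4, 1.28, 1.28, 0.92, 1.68 and 1.18 in old mice 1 to 5, and 2.80, 1.55, 1.71 and 2.96 in old-OSKM mice 1 to 4. The values form a high set of 3 mice, old-OSKM mice 1 and 4 and young mouse 4, at 2.80 to 2.96, and a lower set of 10 mice at 0.92 to 1.87. The old-OSKM mean of 2.26 ± 0.73 (SD, n = 4) lay 0.99 above the old mean of 1.27 ± 0.27 (SD, n = 5), with SE 0.36 and an interval of 0.21 to 1.77. This is 1.98-fold, with a limma adjusted p of 0.55 and an exact permutation p of 0.016. From the young mean of 1.94 ± 0.65 (SD, n = 4) the old mice differed by -0.67, with an interval of -1.45 to 0.11. The raw limma p was 0.087 and the adjusted p 1.0, and the exact permutation p was 0.032 (0.19 adjusted over the 30 tests). Old-OSKM mice lay 0.32 above young mice (interval -0.50 to 1.14, limma adjusted p = 0.74), but 0.01 above them without the 3 mice, 0.08 without old-OSKM mouse 4 alone and 0.63 without young mouse 4 alone. Without the 3 mice, which also had the highest stellate cell and fibroblast sums, Tgfbr2 lay 0.36 higher in old-OSKM than old mice and differed by -0.35 between old and young, with neither raw p under 0.05. The latter was also -0.35 without young mouse 4 alone. The 3 mice that stood apart also held the 3 highest Tgfbr2 levels, so leaving them out is no test of these markers. The part of these markers in the Tgfbr2 level was not tested. Leaving out old-OSKM mouse 1 alone gave 0.80 and leaving out old-OSKM mouse 4 alone gave 0.75 in place of 0.99, each with a raw p above 0.05. Within the first run of identifiers, which holds all old-OSKM mice, it was 0.96 with a raw p under 0.05.

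The run of 250 bases before the Tgfbr2 start site, at chr9:116175364-116175613 on the minus strand of GRCm38.p6, is shown because this receptor had the largest difference between old-OSKM and old mice. It is written whole in lower case, since none of the 6 motifs is in it.
Tgfbr2: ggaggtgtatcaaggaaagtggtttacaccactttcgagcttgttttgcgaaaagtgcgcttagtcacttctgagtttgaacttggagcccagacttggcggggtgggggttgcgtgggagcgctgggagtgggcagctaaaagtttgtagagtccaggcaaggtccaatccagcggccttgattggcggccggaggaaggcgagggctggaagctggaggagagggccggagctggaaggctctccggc

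Tgfbr3 (Entrez 21814, chr5:107106567-107289629) encodes betaglycan, the co-receptor that presents ligand, TGF-beta 2 above all, to the type II receptor. Its levels were 0.36, 0.41, 0.46 and 1.33 in young mice 1 to 4, 0.16, 0.33, -0.25, 0.45 and 0.31 in old mice 1 to 5, and 0.95, 0.27, 0.27 and 2.01 in old-OSKM mice 1 to 4. The same 3 mice held the 3 highest values, and old-OSKM mice 2 and 3 lay within the range of the old mice. Old-OSKM mice lay 0.68 above old mice (SE 0.35, interval -0.08 to 1.44, limma adjusted p = 0.57), and 0.07 above them without the 3 mice. Old mice differed from young mice by -0.44 (interval -1.20 to 0.32, limma adjusted p = 1.0), and by -0.21 without the 3 mice. From young mice the old-OSKM mice differed by 0.24, and by -0.14 once old-OSKM mouse 4 was left out.

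**Figure D2:**
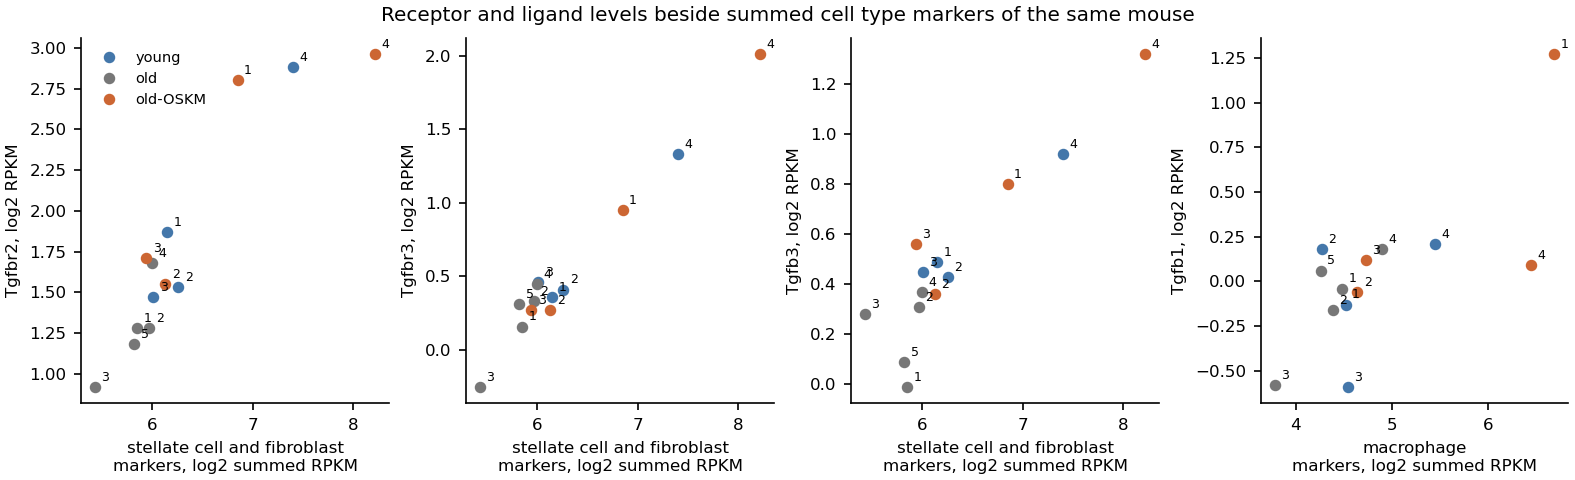
Levels of Tgfbr2, Tgfbr3 and Tgfb3 (log2 RPKM) against the summed stellate cell and fibroblast markers of the same mouse, and of Tgfb1 against the summed macrophage markers (log2 of summed RPKM), each point a mouse with its number, coloured by group. Old-OSKM mice 1 and 4 and young mouse 4 are at the upper right of the first 3 panels, and in the fourth old-OSKM mouse 1, at a macrophage sum of 6.69, stands above old-OSKM mouse 4, at 6.45.

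Tgfbr1 (Entrez 21812, chr4:47353222-47414926), the type I receptor and kinase of the complex, was nearly constant. It lay between 1.47 and 1.65 in the young mice, 1.20 and 1.64 in the old mice, and 1.54 and 1.64 in the old-OSKM mice, with old mouse 4 alone below 1.47. The old mice differed from the young by -0.03 (interval -0.22 to 0.17, limma adjusted p = 1.0), and the old-OSKM mice from the old by 0.07 (interval -0.12 to 0.27, adjusted p = 0.70). Its SD over all mice, 0.12, was larger than that of only 6.91% of the 8410 genes with a mean log2 RPKM of 0 or more, whose median SD was 0.23. The SD of Tgfbr2, 0.68, was larger than that of 96.4% of these genes. Tgfbr2 was above Tgfbr1 in 6 of 13 mice, and above Tgfbr3 in 13 of 13, by 0.87 to 1.85.

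The receptor-activated Smads and the common Smad differed little between groups. Smad4 (Entrez 17128, chr18:73634790-73703791), the partner shared with BMP signalling, was the most abundant member, at 2.43, 2.63, 2.41 and 2.37 in young mice 1 to 4, 2.61, 2.49, 2.67, 2.67 and 2.56 in old mice 1 to 5, and 2.40, 2.46, 2.73 and 2.60 in old-OSKM mice 1 to 4. The groups overlapped, with young mouse 2 among the old mice. Old mice lay 0.14 above young mice (interval -0.04 to 0.32, limma adjusted p = 1.0), and old-OSKM mice differed from old mice by -0.05 (interval -0.23 to 0.13, adjusted p = 0.74). Smad3 (Entrez 17127, chr9:63646766-63757994) ranged from 1.66 (old mouse 5) to 2.12 (old mouse 1), so that the 5 old mice alone covered the whole range of the 13. Its differences were 0.11 between old and young (interval -0.10 to 0.32) and -0.03 between old-OSKM and old mice (interval -0.24 to 0.18). Smad2 (Entrez 17126, chr18:76241090-76311748) ranged from 0.89 (old mouse 4) to 1.29 (young mouse 2), with differences of -0.04 (interval -0.25 to 0.17) and -0.05 (interval -0.26 to 0.16). For Tgfbr1, Smad2, Smad3 and Smad4, every interval of these 2 differences lay within ±0.32, so a change of 1.5-fold, 0.58 on this scale, was outside all of them.

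Within every mouse Smad4 was above Smad3 (by 0.41 to 0.90) and Smad3 above Smad2 (by 0.49 to 1.02). The SDs of Smad2, Smad3 and Smad4 over the 13 mice (0.13, 0.13 and 0.12) were larger than those of only 10.6%, 11.5% and 7.02% of the genes with a mean log2 RPKM of 0 or more.

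Smad7 (Entrez 17131, chr18:75367365-75395935), the inhibitory Smad that blocks the type I receptor and is itself a target of the pathway, varied more. It was 0.67, 0.73, 1.00 and 1.17 in young mice 1 to 4, 1.10, 1.20, 0.79, 0.66 and 1.12 in old mice 1 to 5, and 0.56, 0.91, 0.82 and 2.05 in old-OSKM mice 1 to 4. Old-OSKM mouse 4 was above the other 12 mice, and old-OSKM mouse 1 was the lowest of all, so this gene parted the 2 old-OSKM mice that were alike in Tgfbr2. Old-OSKM mice differed from old mice by 0.11 (interval -0.46 to 0.68, limma adjusted p = 0.84), and by -0.21 without old-OSKM mouse 4.

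**Figure D3:**
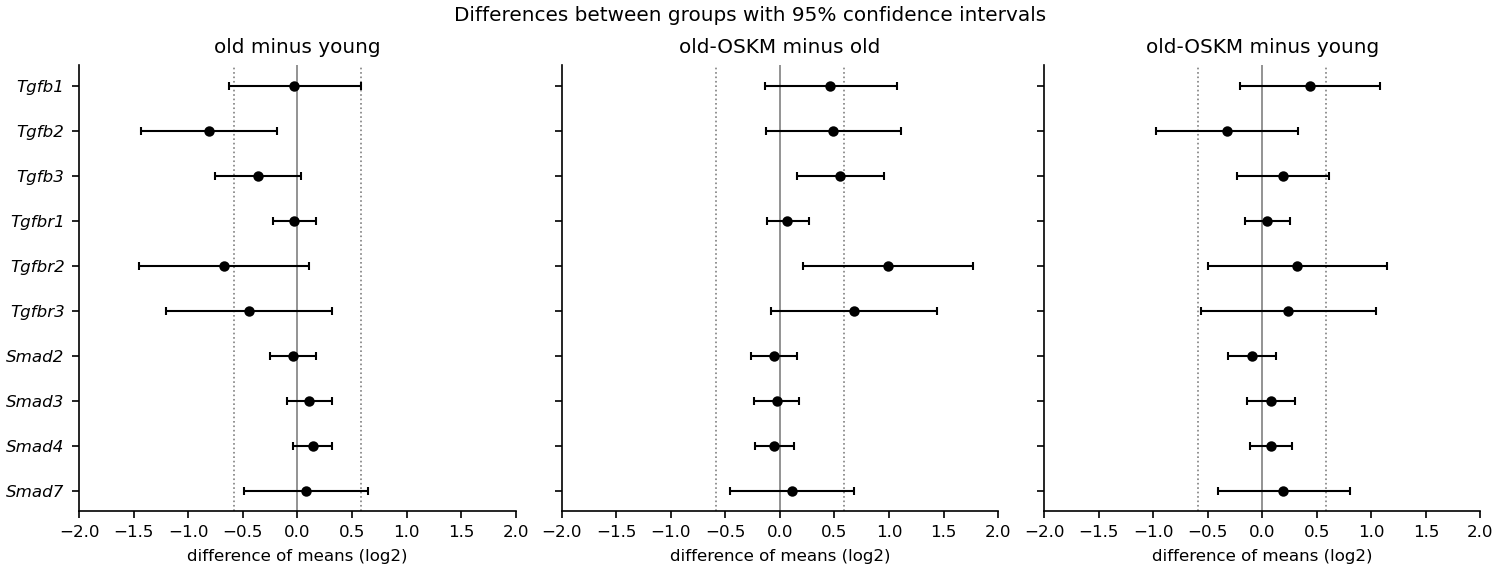
Difference of group means (log2) of each gene in the 3 contrasts, with 95% confidence intervals from limma, and dotted lines at a fold change of 1.5. The intervals of Tgfb2 in old minus young, and of Tgfb3 and Tgfbr2 in old-OSKM minus old, leave out 0, and those of Tgfbr1, Smad2, Smad3 and Smad4 are the narrowest.

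Ordered by mean level over all mice, the members ran from Smad4 (2.54 ± 0.12 SD, n = 13) through Smad3 (1.90), Tgfbr2 (1.78), Tgfbr1 (1.56), Smad2 (1.08), Smad7 (0.98), Tgfbr3 (0.54), Tgfb3 (0.49) and Tgfb1 (0.04) to Tgfb2 (-0.89 ± 0.54). The signalling Smads and the receptors thus stood above all 3 ligands, except that Tgfbr3 and Tgfb3 were level. Neighbours in this order whose means were closer than the larger of their SDs were Smad3 and Tgfbr2, Tgfbr2 and Tgfbr1, Smad2 and Smad7, Smad7 and Tgfbr3, and Tgfbr3 and Tgfb3, and the means of Tgfb3 and Tgfb1 were about 1 SD apart. In the old mice Tgfbr2 (1.27) ranked below Smad3 (1.94) and Tgfbr1 (1.52), whereas in the young (1.94) and old-OSKM mice (2.26) it came right after Smad4. This place rests on the 3 mice that stood apart. Without them Tgfbr2 came after Smad3 in the young (1.62 against 1.83) and old-OSKM mice (1.63 against 1.97) too, and over the 10 remaining mice also after Tgfbr1 (1.45 against 1.55). Over the 10 members the median difference was -0.03 between old and young mice (0.00 over all genes), 0.29 between old-OSKM and old mice (-0.06 over all genes) and 0.14 between old-OSKM and young mice (-0.06 over all genes). The medians of the members without the 3 mice were -0.04, 0.06 and 0.00, and those of all genes -0.02, 0.02 and 0.00.

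Across the 13 mice Tgfb3, Tgfbr2 and Tgfbr3 followed each other, with Pearson's r of 0.91 (Tgfb3 and Tgfbr2), 0.90 (Tgfb3 and Tgfbr3) and 0.91 (Tgfbr2 and Tgfbr3). Over the 10 mice without the 3 that stood apart r was 0.67, 0.34 and 0.70. These are descriptions of libraries that differ in their cell markers, and no test was made of them. Of the genes with a mean log2 RPKM of 0 or more, those most like Tgfbr2 were Anxa2 (r = 0.98, and 0.84 over the 10 mice) and Axl (0.96 and 0.84). Tgfbr3 was most like Ly6c1 (0.98 and 0.88) and Ccl11 (0.98 and 0.96), and with group means removed like Dcn (0.98 and 0.80), which encodes the matrix proteoglycan decorin. Tgfb3 was most like Lhfp (0.97 and 0.86) and Bcam (0.95 and 0.81), and Tgfb1 most like Ifitm3 (0.96 and 0.88), an interferon-induced gene. Tgfb2 was most like Ncl (0.91 and 0.83) and Gpcpd1 (0.91 and 0.93), Smad7 most like Rai1 (0.99 and 0.95), and Smad4 most like Pigc (0.90 and 0.91). For Tgfbr1, Smad2 and Smad3, whose levels hardly varied, the highest r was 0.77 (Plk2), 0.80 (Dcun1d4) and 0.83 (Exoc6). With group means removed, Tgfbr2 was most like Tpm3 (0.98, and 0.77 over the 10 mice) and Stab1 (0.97 and 0.09). Tgfb3 was then most like Bcam (0.97 and 0.81) and Pafah1b1 (0.96 and 0.26), and Tgfb2 most like Pdgfa (0.93 and 0.69) and 2410006H16Rik (0.92 and 0.20). The r over the 10 mice was always taken on levels as measured, and for some of these genes it was low.

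The other genes of the pathway were taken as 6 lists of 71 genes. Between old and young mice 2 of the 71 had a raw p under 0.05 and were higher in old, and 9 were lower. Between old-OSKM and old mice 10 were higher and 2 lower, and between old-OSKM and young mice 4 were higher and 0 lower. The shares of all genes were 3.0% higher and 2.52% lower in the first, 3.98% and 4.08% in the second, and 2.91% and 2.16% in the third. None of the 71 had an adjusted p under 0.05 in limma. Without the 3 mice that stood apart, 16, 6 and 4 of the 71 had a raw p under 0.05, in place of 11, 12 and 4.

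Target genes of the pathway made up 6 of the 11 genes in old against young mice and 8 of the 12 in old-OSKM against old mice. Of 20 target genes, 5 were lower in old mice against young at a raw p under 0.05, and 1 was higher, with a median difference of -0.15 (0.00 over all genes). Between old-OSKM and old mice 7 were higher and 1 lower, with a median of 0.57 (-0.06 over all genes). Between old-OSKM and young mice 0 of 20 had a raw p under 0.05, with a median of 0.22. The targets had, without the 3 mice, medians of 0.06, 0.11 and 0.06 in the 3 contrasts, and 4 were lower and 1 higher in old mice against young, and 3 higher and 0 lower in old-OSKM against old mice. Fn1, which encodes the matrix protein fibronectin, was 3.09, 3.0, 2.87 and 4.05 in young mice 1 to 4, 1.98, 1.78, 1.00, 2.70 and 1.95 in old mice 1 to 5 and 3.51, 2.85, 2.63 and 4.05 in old-OSKM mice 1 to 4. Its old values were all below its young values, and only old mouse 4 reached the range of the old-OSKM mice. It was called lower in old than in young mice (difference -1.37, SE 0.38, limma adjusted p = 0.46) and higher in old-OSKM than in old mice (1.38, SE 0.38, adjusted p = 0.55).

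Col1a1, a chain of type I collagen, measured 2.85, 2.86, 1.98 and 3.81 in young mice 1 to 4, 1.63, 1.38, 1.30, 1.53 and 1.83 in old mice 1 to 5 and 3.44, 2.3, 2.04 and 3.42 in old-OSKM mice 1 to 4. The old mice formed the lowest set against both other groups. Its differences were -1.34 between old and young (SE 0.37, limma adjusted p = 0.47) and 1.27 between old-OSKM and old mice (SE 0.37, adjusted p = 0.55). Postn, encoding periostin, another matrix protein of activated fibroblasts, was called 1.33 higher in old-OSKM than old mice (SE 0.37, limma adjusted p = 0.55), with no old-OSKM value (-0.42 to 1.24) inside the old range (-1.19 to -0.59). The other targets lower in old mice were Col1a2, Col3a1 and Postn, and Tgfbi, Col1a2, Col3a1 and Junb were the other targets higher in old-OSKM mice, named after their values were seen. Of the targets, 3 were called lower in old mice (Fn1, Col1a1 and Col3a1), as were 0.556% of all genes, and 4 higher in old-OSKM mice (Fn1, Col1a1, Col1a2 and Postn), as were 0.753% of all genes. Col1a1, Col1a2 and Col3a1 are also on the list of stellate cell and fibroblast markers. Of those 11 markers, 5 were lower in old mice against young at a raw p under 0.05, as were 2.52% of all genes, and 0 lay above 0 in this contrast. Between old-OSKM and old mice 5 were higher, as were 3.98% of all genes, and all 11 lay above 0. The 3 collagen genes are among the 5 in both contrasts. The marker sums were 6.01 to 7.40 in young, 5.43 to 6.0 in old and 5.94 to 8.22 in old-OSKM mice, and the part of these cells in the target genes was not tested. Without the 3 mice, Fn1 differed by -1.11, Col1a1 by -1.03 and Col3a1 by -1.11 in old minus young, all still called, but without young mouse 4 alone none of the 3 was called. In old-OSKM minus old, without the 3 mice, Fn1 differed by 0.86, Col1a1 by 0.64 in place of 1.27, Col1a2 by 0.58 in place of 1.28 and Postn by 0.84. None of the 4 was then called, and the raw p of Postn was above 0.05. All 4 calls were also lost without old-OSKM mouse 1 alone or old-OSKM mouse 4 alone. Tgfbi (0.99), Junb (0.68) and Col3a1 (1.31) differed by 0.13, 0.38 and 0.68 without the 3 mice, with raw p above 0.05.

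Cdkn1a, encoding the cell cycle inhibitor p21 and induced by p53 as well as by TGF-beta, went the other way and is named after its values were seen. It was 2.48, 0.89, 2.01 and 1.12 in young mice 1 to 4, 2.46, 2.77, 2.89, 3.28 and 3.36 in old mice 1 to 5, and 2.63, 2.88, 1.58 and 0.30 in old-OSKM mice 1 to 4. The groups overlapped, young mouse 1 and old-OSKM mice 1 and 2 being at the level of the old mice. The differences were 1.33 between old and young (SE 0.50, limma adjusted p = 0.76) and -1.11 between old-OSKM and old mice (SE 0.50, adjusted p = 0.55). The latter was -0.59 without old-OSKM mouse 4, whose level was the lowest of all mice, and -0.73 without the 3 mice, with raw p above 0.05 in both. The former was 1.16 without the 3 mice, and its raw p was above 0.05 without young mouse 2 or young mouse 4 alone.

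Of the 12 genes of latency and activation, 2 were lower in old mice against young at a raw p under 0.05. They were Lrrc32 (-0.59, SE 0.19, limma adjusted p = 0.60), which encodes GARP, the protein that holds latent TGF-beta at the cell surface, and Fbn1 (-1.03, SE 0.34, adjusted p = 0.64), encoding the microfibril protein fibrillin. Lrrc32 was the list's 1 called gene in this contrast, at the edge of the fold threshold. Its call was lost in 6 of 13 fits that left out 1 mouse (young mouse 1, 2 or 4, or old mouse 3, 4 or 5), without the 3 mice (-0.47) and with the values read as log2 (-0.41). Fbn1 was -0.71 without the 3 mice. Between old-OSKM and old mice 3 were higher. Ltbp1, whose protein tethers latent TGF-beta to the matrix, was -0.57, -0.50, -0.26, -0.28 and -0.39 in old mice 1 to 5 and -0.02, -0.11, -0.04 and 1.09 in old-OSKM mice 1 to 4. The groups did not overlap, as in 1.02% of all genes in this direction, but old-OSKM mice 1 to 3 were close to the highest old mouse. Its difference was 0.63 (SE 0.22, limma adjusted p = 0.55), and 0.32 without the 3 mice. Lrrc32 (0.49, SE 0.19) and Fbn1 (0.76, SE 0.34) were the others, at 0.24 and 0.43 without the 3 mice, with raw p above 0.05. Ltbp2 was called higher in old-OSKM than in young mice (2.31, SE 0.74, limma adjusted p = 0.71), at low levels of -8.08 to -2.83 in all mice, where 0.582% of all genes were called higher. The call was lost without the 3 mice (2.51) and in 11 of 13 fits that left out 1 mouse. Furin, the protease that cuts the precursor, differed by -0.15 in the same contrast. The list's medians were -0.10, 0.36 and 0.10 in the 3 contrasts, and -0.11, 0.16 and -0.04 without the 3 mice.

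In the 5 co-receptors and related type I receptors 0 had a raw p under 0.05 in any contrast in limma with all 13 mice. Eng and Acvrl1, the endoglin and ALK1 receptors of endothelium, differed by -0.48 and -0.46 between old and young mice and by 0.49 and 0.58 between old-OSKM and old mice. Without the 3 mice they differed by -0.34 and -0.30 in the former, where the raw limma p of Eng was 0.02, and by 0.11 and -0.02 in the latter. The old values of Eng were all below the young values, as in 1.22% of all genes, but by a narrow step (2.77 against 2.78). Acvr1b and Acvr1 differed by -0.20 and -0.14 between old-OSKM and young mice. Of the 4 other Smads, Smad6, the inhibitory Smad of the BMP branch, was with all 13 mice the 1 gene with a raw p under 0.05, in both comparisons with young mice. It was -0.45 to -0.35 in young, -0.36 to 0.15 in old and -0.43 to 0.16 in old-OSKM mice, a difference of 0.35 between old and young mice (SE 0.13, limma adjusted p = 0.70) and 0.30 between old-OSKM and young mice (SE 0.13, adjusted p = 0.71). These were 0.35 and 0.45 without the 3 mice, and in 9 of 13 fits that left out 1 mouse the second had a raw p above 0.05. Old mouse 4 and old-OSKM mouse 1 were the mice of those groups inside the young range. Smad5 differed by 0.22 between old and young mice and by 0.19 between old-OSKM and young mice. Without the 3 mice the first was 0.27, with a raw limma p of 0.0086, and the second 0.12. Smad1 and Smad9 differed by -0.07 and -0.28 between old-OSKM and old mice.

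The 12 Smad cofactors and negative regulators had 1 raw p under 0.05 in old against young mice (Pmepa1, a feedback inhibitor, -0.50, SE 0.22, limma adjusted p = 0.88), 1 in old-OSKM against old mice (Ppm1a, a Smad phosphatase, -0.18, SE 0.07, adjusted p = 0.55) and 0 in old-OSKM against young. Pmepa1 and Ppm1a had raw p above 0.05 in 7 and 4 of the 13 fits that left out 1 mouse, and without the 3 mice (-0.49 and -0.12). The list's medians were 0.09, -0.03 and 0.05. Without the 3 mice, 1 gene of the list was higher and 0 lower in old against young mice at a raw p under 0.05. Smurf1, a ubiquitin ligase for Smads and receptors, differed by 0.25 between old and young mice, Zfyve9, which encodes the receptor adaptor SARA, by -0.23 between old-OSKM and old mice, and Tgif1, a Smad corepressor, by 0.32 between old-OSKM and young mice.

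Of the 18 BMP and activin genes, 1 was lower in old mice against young at a raw p under 0.05. It was Fst, encoding the activin trap follistatin (-0.96, SE 0.36, limma adjusted p = 0.74). None had a raw p under 0.05 between old-OSKM and old mice, where Gdf15, a stress-induced member of the family, differed by -0.76 (adjusted p = 0.55) and Bmp7 by -0.25. Between old-OSKM and young mice Chrd, encoding the BMP antagonist chordin (1.70, SE 0.65, limma adjusted p = 0.71), and Inhbb, encoding an activin subunit (0.96, SE 0.40, adjusted p = 0.71), were higher. Fst differed by -0.87, Chrd by 1.48 and Inhbb by 0.77 in these contrasts without the 3 mice, each with a raw p above 0.05. These genes had low levels in all mice (Fst -4.05 to -2.17, Chrd -5.11 to -0.91, Inhbb -3.65 to -1.19). With a pseudocount of 1, which by its form shrinks differences at such low levels, their differences were -0.10 (Fst), 0.23 (Chrd) and 0.16 (Inhbb). Bmpr1b differed by 0.73 between old and young mice. The list's medians were 0.09, -0.04 and -0.06, and 0.19, -0.05 and 0.01 without the 3 mice. Without these mice 3 genes were higher and 0 lower in old against young mice at a raw p under 0.05. Between old-OSKM and old mice 1 was then higher and 1 lower, and between old-OSKM and young mice 0 were higher or lower.

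**Figure D4:**
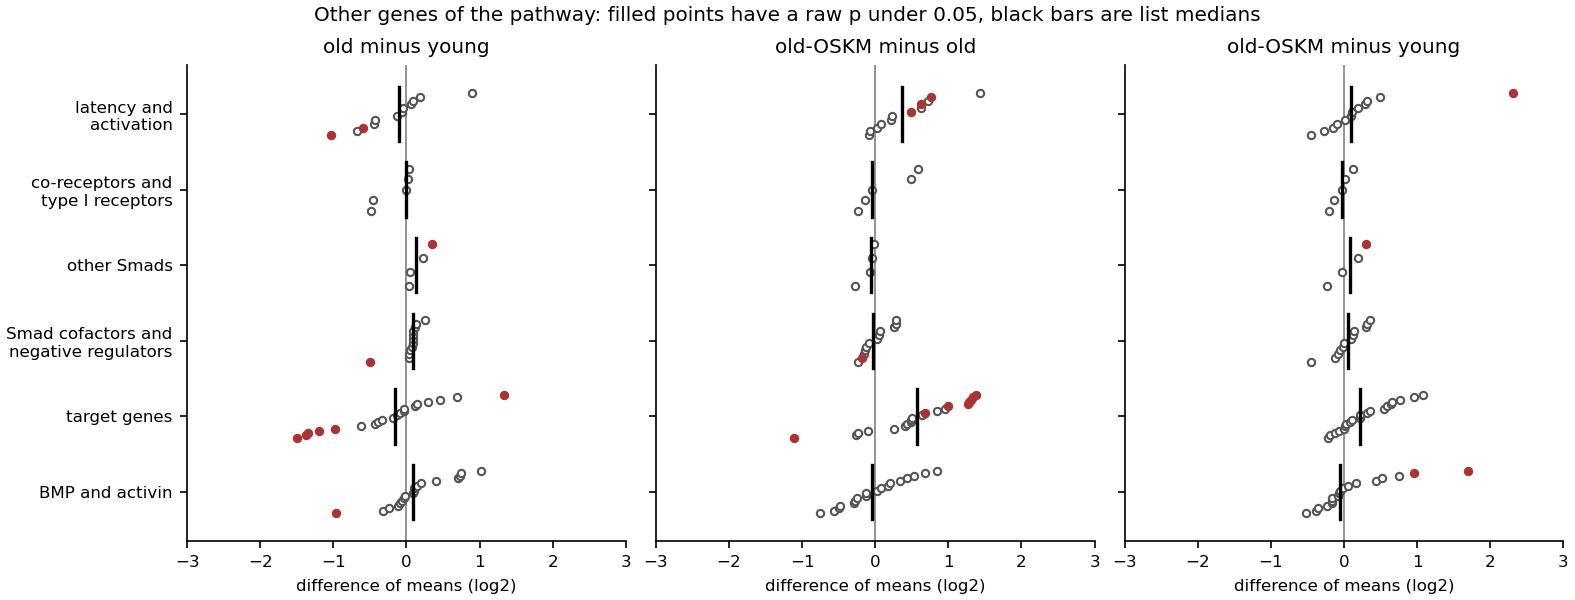
Difference of group means (log2) of each gene of the 6 pathway lists in the 3 contrasts, each point a gene, filled where its raw limma p is under 0.05, with a black bar at the list's median. The target genes have a median of -0.15 in old minus young and 0.57 in old-OSKM minus old, and the other Smads and the cofactors stay near 0.

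**Figure D5:**
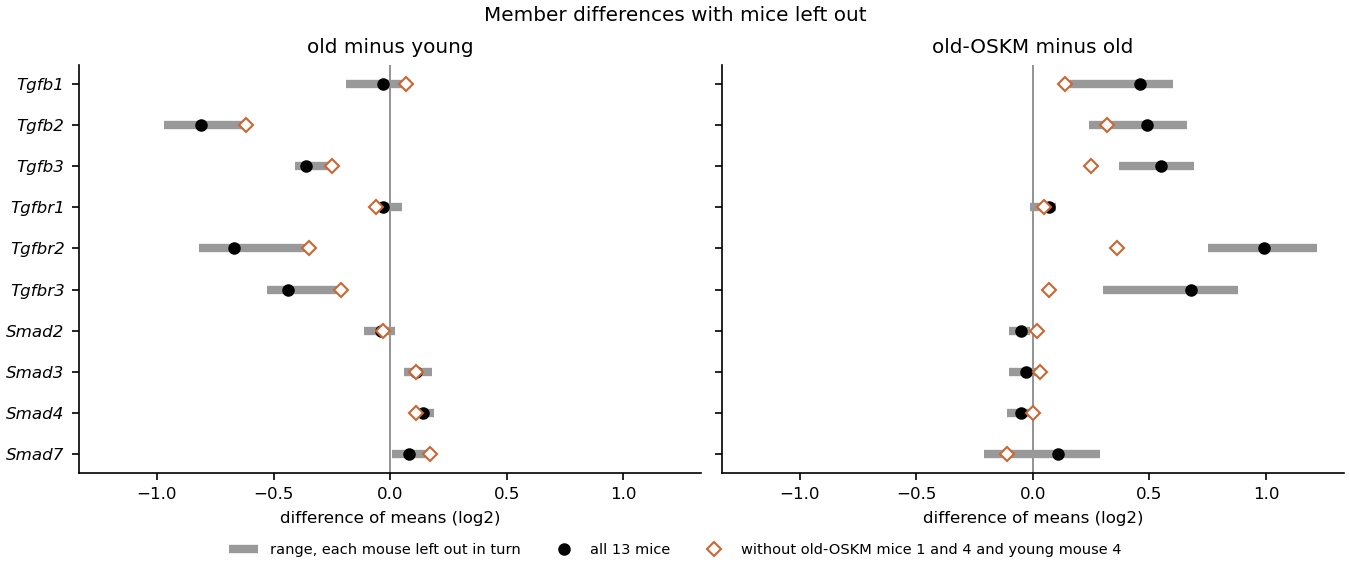
Difference of group means (log2) of each of the 10 genes with all mice (black), over the fits that leave out each mouse in turn (grey bar), and without old-OSKM mice 1 and 4 and young mouse 4 (open diamonds). Between old-OSKM and old mice Tgfbr2 moves from 0.99 to 0.36 and Tgfbr3 from 0.68 to 0.07 without these 3 mice, while Tgfb2 in old minus young moves from -0.81 to -0.62.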

How the data were processed

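Expression was measured by RNA sequencing of rRNA-depleted pancreas RNA, 1 library per mouse, from 4 young, 5 old and 4 old-OSKM mice grouped by the labels. The authors aligned reads to mm10 (STAR 2.3.0e in the submitters' processing notes), estimated RPKM per isoform with Casper, summed them per Entrez gene, took logs and quantile normalized. They also describe a correction for each sample's total reads with a linear model. Whether the deposited values carry that correction was not tested. Sorted values of the mice differ by at most 0.017 (log2). Their methods call the deposited values log2 RPKM. The values nevertheless behave as the natural log of RPKM. Among 876 single-transcript genes resting at their lowest value, the deposited value fell with the natural log of transcript length with a slope of -0.996 (95% interval -1.001 to -0.991), where natural logs give -1 and log2 gives -1.44. The deposited natural log values were therefore divided by the natural log of 2 before any test, although the design had assumed log2. Read as log2, all differences are smaller by that factor and the p-values are the same.

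A linear model of all 3 groups was fitted to each gene with the limma package (version 3.58.1, R 4.3.3), with lmFit, contrasts.fit and eBayes at their defaults and two-sided contrasts with no covariate, on all 23366 genes without filter or pseudocount. Adjusted p-values are Benjamini-Hochberg over all genes. The fit was tested on simulated data. For members, exact two-sided permutation tests, which enumerate every split of the mice into the 2 groups, are given beside limma. They were planned for members with a raw limma p under 0.05. They are also given for Tgfb3 and Tgfbr2 in old against young mice, where that p was above 0.05, and the other exact p-values are not printed. The members, 6 pathway lists and 12 marker lists were chosen with earlier results of these data known, and the lists come from general knowledge. Of the T cell markers, 6 of 7 were in the table. Named pathway genes are the 2 of each list with the smallest raw p in each contrast. Neighbours are the 2 genes with the highest r to a member, as measured and with group means removed, and not all of them are named. Marker sums are the log2 of summed RPKM over a list. Alternatives were a repeated quantile normalization, median centring, pseudocounts of 1 and 0.1, a filter at a mean log2 RPKM of 0, the 2 groups alone, eBayes with trend and robust settings, a covariate for the run of identifiers (609 to 621 or 641 to 643), and each mouse left out in turn. Reading the values as log2, leaving out the 3 mice that stood apart and keeping only the first run of identifiers were added after the data were seen. Promoters came from RefSeq's table on GRCm38.p6, in which 5 members matched. The methods state a nominal sequencing depth for all samples, but the deposited table holds no totals of mapped reads per mouse, and counting error was not estimated.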

Additional observations from a re-analysis of the deposited data

Results flagged for a closer look

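In 4 of 30 sets (10 members in 3 groups) 1 mouse lay far from the rest of its group, by Dixon's criterion at the 95% level, under which about 1 in 20 sets is picked by chance. Tgfb1 was 1.27 log2 RPKM in old-OSKM mouse 1, with a gap of 0.864 of the group's range to the next mouse. Tgfb3 was 0.92 and Tgfbr3 was 1.33 in young mouse 4, with gaps of 0.885 and 0.896 of the range. Tgfbr1 was 1.20 in old mouse 4, below the other old mice by 0.794 of the range. Old-OSKM mouse 1 and young mouse 4 are among the 3 mice with the highest stellate cell and fibroblast sums (6.85 and 7.40), and old mouse 4, at 6.0, is not.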

How the results depend on the processing

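No paired analysis was made, because each library came from a different mouse and the groups were independent. Repeating the quantile normalization, centring each mouse, trend and robust eBayes, the identifier covariate and reading the values as log2 left each count of members with a raw p under 0.05 as it was. Genes called numbered 274 between old and young, 238 between old-OSKM and old and 190 between old-OSKM and young mice. These counts were 34, 12 and 16 with a pseudocount of 1, 172, 112 and 90 with one of 0.1, and 69, 55 and 35 on the 8410 genes with a mean log2 RPKM of 0 or more, of which Tgfb2 is not one. Leaving out each mouse in turn gave 218 to 354, 137 (without old-OSKM mouse 1) to 426 (without old-OSKM mouse 2) and 172 to 324 (without old-OSKM mouse 2), and leaving out old-OSKM mice 1 and 4 and young mouse 4 gave 114 between old-OSKM and old mice.

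Members with a raw p under 0.05 in old against young mice numbered 1. There were 0 with the filter and in the first run of identifiers, and 2 with the 2 groups alone and without the 3 mice. Leaving out each mouse gave 0 (without young mouse 4) to 2 (without young mouse 2, old-OSKM mouse 2 or old-OSKM mouse 4). In old-OSKM against old mice they numbered 2, 0 without the 3 mice, and 1 (without old-OSKM mouse 1 or 4) to 4 (without old-OSKM mouse 3) with each mouse left out. Pathway genes with a raw p under 0.05 numbered 11, 12 and 4 in the 3 contrasts. They were 7 and 0 with the filter in the comparisons of old and of old-OSKM with young mice, 19 and 2 there with the 2 groups alone, and 6 in old-OSKM against old without the 3 mice. With each mouse left out they were 8 to 17 (without old-OSKM mouse 4), 7 (without old-OSKM mouse 1) to 23 (without old-OSKM mouse 3), and 2 (without young mouse 1, 2 or 3, or old-OSKM mouse 2 or 4) to 6.

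Some small differences changed sign. Without the 3 mice, Tgfb1 in old against young became 0.07, Smad2, Smad3, Smad7 and Acvrl1 in old-OSKM against old became 0.02, 0.03, -0.11 and -0.02, and Tgfbr1, Tgfbr3 and Acvr1b in old-OSKM against young became -0.01, -0.13 and 0.05. With each mouse left out, the ranges that crossed 0 in old against young were -0.19 to 0.09 (Tgfb1), -0.06 to 0.05 (Tgfbr1) and -0.11 to 0.02 (Smad2). In old-OSKM against old they were -0.01 to 0.10 (Tgfbr1), -0.10 to 0.02 (Smad3), -0.21 to 0.29 (Smad7) and -0.62 to 0.02 (Smad9). In old-OSKM against young they were -0.14 to 0.47 (Tgfbr3), -0.13 to 0.37 (Smad7) and -0.28 to 0.02 (Acvr1). The adjusted p of a member was never under 0.19 in any alternative. The cause of these shifts was not tested. The filter left fewer genes, and the smaller fits had fewer mice. Counting error at low levels such as those of Tgfb2 was not estimated.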
